A study of Mus musculus with 40 samples.

Results

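The response of mouse muscle to the loss of Tsc1 was examined at 3 months of age, when the study describes a weak phenotype or none. The comparison took the libraries that the labels give as 3 months old, TSCmKO and vehicle against those given as 3 months old, Tsc1fl/fl and vehicle, and it used all expressed genes. These were 10 of the 40 libraries of the data set, 5 per group, each from the whole extensor digitorum longus (EDL), a fast hindlimb muscle, of 1 mouse. The strain label of all mice was Tsc1tm1Djk/J, and knockout and control mice both carried floxed Tsc1 alleles. TSCmKO mice lost Tsc1 in skeletal muscle fibers through a muscle-specific Cre recombinase, and the controls (CON) were littermates without Cre. Groups are written 3mTSCmKO and 3mCON, and all mice in them received intraperitoneal vehicle for 3 days. Other groups served to ask which effects were particular to this age or treatment: vehicle-treated 9mTSCmKO and 9mCON mice, described by the study as the stage of a severe phenotype, and 3mTSCmKO+RM and 3mCON+RM mice, which received the mTORC1 inhibitor rapamycin (RM) for 3 days.

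Tsc1 and Tsc2 form a complex that switches off the small GTPase Rheb, the direct activator of the kinase complex mTORC1. When nutrients and growth factors are plentiful, mTORC1 raises protein, lipid and nucleotide synthesis and holds back autophagy and lysosome formation. Without Tsc1 it stays active, and the feedback of mTORC1 on insulin signalling lowers the activity of Akt, which otherwise keeps FoxO transcription factors out of the nucleus. FoxO factors drive ubiquitin ligases of muscle atrophy and autophagy genes, and ATF4, a factor translated more under stress or active mTORC1, drives amino acid synthesis, amino acid transport and tRNA charging.

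Values are TMM-scaled CPM, that is, estimated counts relative to library size after scaling for composition. Genotype effects are log2 fold changes of 3mTSCmKO over 3mCON with their standard errors (SE), and adjusted p-values come from edgeR's quasi-likelihood test with the Benjamini-Hochberg method over all 13543 genes tested. A gene passed with an adjusted p under 0.05. Sums of estimated counts ran from 10988960 to 33945646 in 3mCON and from 14682801 to 28404440 in 3mTSCmKO. The biological coefficient of variation was 14.8% in 3mCON and 17.4% in 3mTSCmKO.

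A pair of libraries stood apart from the rest of their groups, 3mCON replicate 3 and 3mTSCmKO replicate 4. On the first principal component of log2(TPM + 1), where TPM is the deposited length-normalised level (48.1% of the variance, 12418 genes) the groups separated, and on the second (14.04%) these libraries lay at the same end. Both had high levels of the limb patterning factors En1, Hoxd8, Hoxd9 and Hoxd10 and a low level of Tbx1, genes that were picked out after their values were seen. En1 was at 1.06, 0.546, 10.1, 0.446 and 0.169 CPM in 3mCON and at 0.461, 0.457, 0.617, 8.45 and 0.252 in 3mTSCmKO replicates 1 to 5. Hoxd8 stood at 3.81, 4.73, 33.6, 3.87 and 4.56 CPM in 3mCON and at 3.16, 3.72, 3.85, 16.2 and 3.74 in 3mTSCmKO. Tbx1 ran the other way, at 49.5, 57.04, 19.04, 58.03 and 60.2 CPM in 3mCON and 86.98, 65.4, 94.6, 20.3 and 88.9 in 3mTSCmKO. Since each group held 1 such library, results that rest on them are also given without them. The fit for this left out 9mTSCmKO replicate 1 as well, also for the genotype effect at 3 months. Without these libraries, 2561 genes passed in place of 2676.

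**Figure D1:**
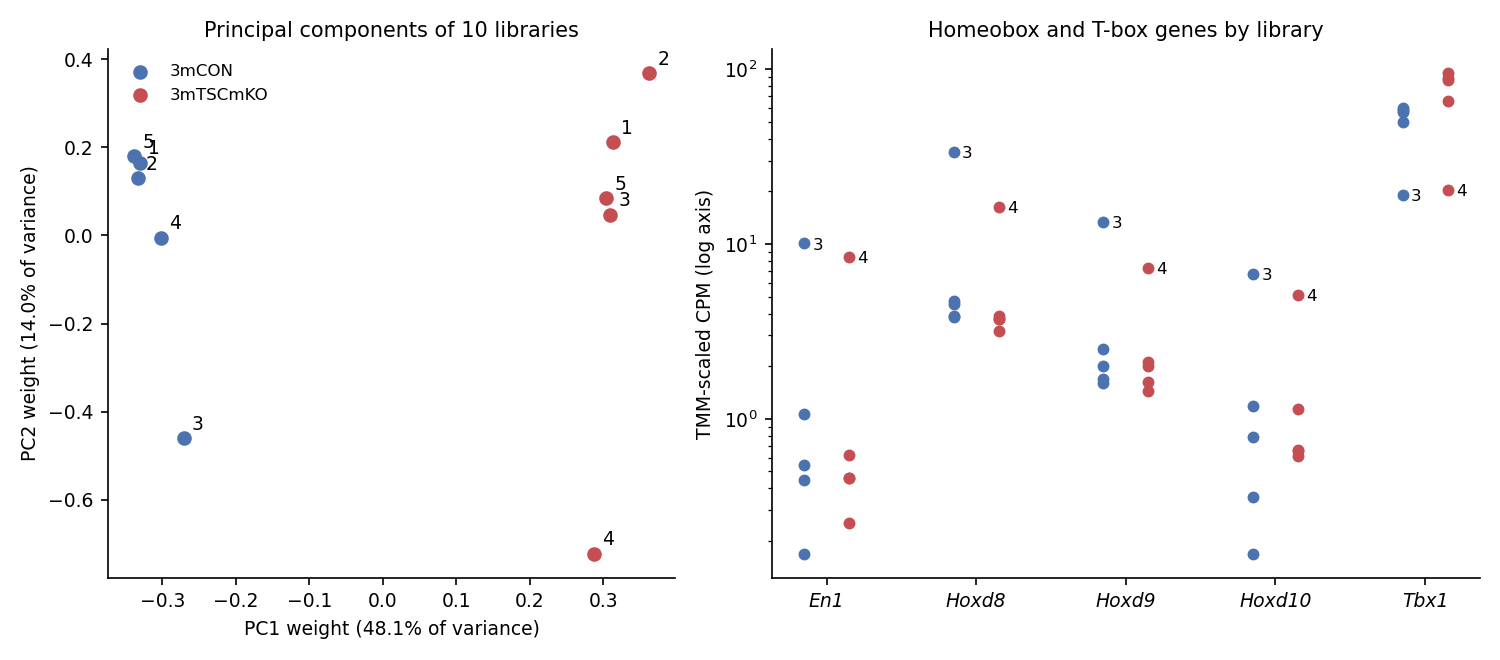
Left, weights of the 10 libraries on the first 2 principal components of log2(TPM + 1), with the replicate number beside each point; the groups lie apart along the first component, and 3mCON replicate 3 and 3mTSCmKO replicate 4 lie below the others on the second. Right, TMM-scaled CPM of 5 patterning genes on a log axis, 1 point per library, where the same libraries carry the highest En1 and Hoxd levels and the lowest Tbx1.

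Markers of the tissue were those of muscle fibers, whose 10 markers summed to 140436 to 184543 CPM in 3mCON and 111964 to 197856 in 3mTSCmKO, with 1 of the 10, Atp2a1, past the test. This call was lost without any of 8 of the 10 libraries, while 4 markers passed without 3mTSCmKO replicate 2 and 3 with DESeq2. Among markers of macrophages, endothelial cells, fibro-adipogenic progenitors, satellite cells, Schwann cells and adipocytes, 0 of 56 genes tested passed with edgeR (5 had an unadjusted p under 0.05, and 1 passed with DESeq2). Fits without 1 library called at most 1 gene per cell type among these, and without the libraries that stood apart 2 of 10 Schwann cell markers were lower. In the same way 1 of 9 passed for tendon cells (Scx, and 0 without 3mCON replicate 1 or 3, 3mTSCmKO replicate 2 or the libraries that stood apart) and 1 of 9 for pericytes and smooth muscle (Acta2, and 0 without 3mCON replicate 5 or 3mTSCmKO replicate 1, 3 or 5), both lower. Over all genes tested, 11.4% passed as higher and 8.32% as lower. Blood markers differed between libraries of 3mTSCmKO. The summed level of 6 erythroid markers was 203 to 1264 CPM in 3mCON and 468 to 9043 in 3mTSCmKO, where replicate 3 held the highest value and replicate 4, at 794, lay inside the control range, and 1 of the 6 passed (3 with DESeq2). This was Slc4a1, the band 3 anion exchanger of red cells, which was highest in replicates 3 and 4, at 0.461, 0.653, 6.32, 8.32 and 0.468 CPM. Of 4 lymphocyte and neutrophil markers tested 3 were higher (1 without replicate 3 alone), S100a9 among them, at 0.461, 1.37, 3.24, 20.2 and 0.36 CPM in 3mTSCmKO. Without replicates 3 and 4 of 3mTSCmKO, 0 of these 4 and 0 of the 6 erythroid markers passed, and 2162 genes passed in all. Replicate 4 is also one of the libraries that stood apart, so that results without replicates 3 and 4 are not particular to blood, and the part of blood in them was not tested. In whole muscle, fewer cells of a type and less RNA per cell cannot be told apart.

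Tsc1 itself checked the genotype labels. Its level was 113, 129, 134, 123 and 84.1 CPM in the 5 3mCON libraries and 30.6, 30.7, 28.1, 26.5 and 30.4 in the 5 3mTSCmKO libraries. Every knockout library lay below every control library, with a log2 fold change of -1.99 ± 0.17 (SE, n = 5 per group, adjusted p = 2.49e-11). The count covers all transcripts of the gene (chr2:28641228-28691167, GRCm38) and was not limited to the deleted exons.

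Of 13543 genes tested, 2676 (19.8%) passed between 3mTSCmKO and 3mCON, 1549 of them higher (11.4%) and 1127 lower (8.32%). The values of the groups did not overlap in 2652 genes (19.6%), 1993 of which had passed. Effects were mostly modest: the median absolute log2 fold change of the genes that passed was 0.61, and 1234 of them changed by less than 1.5-fold. More than 2-fold higher were 372 genes, and more than 2-fold lower 222. The median log2 fold change over all genes tested was -0.02.

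**Figure D2:**
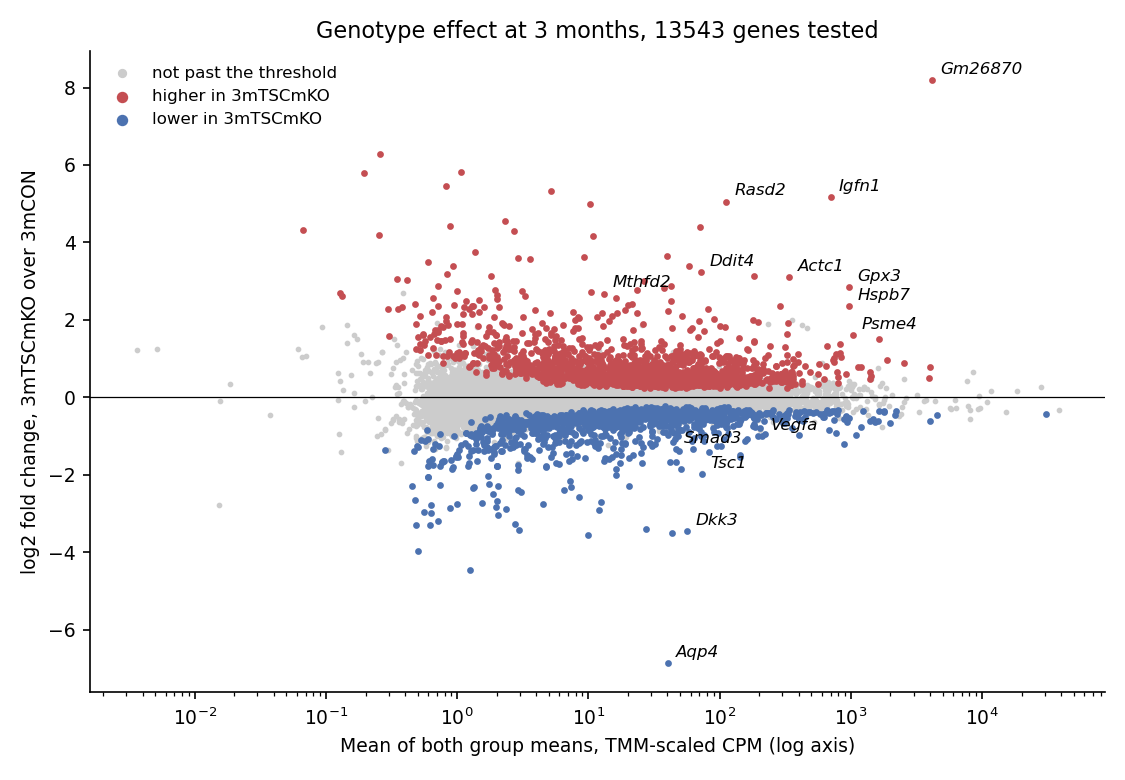
Log2 fold change of 3mTSCmKO over 3mCON (vertical axis) against the mean of both group means in TMM-scaled CPM (horizontal log axis) for each of 13543 genes tested, red where higher and blue where lower past the adjusted p of 0.05. Gm26870 lies highest at 8.20 and Aqp4 lowest at -6.87, while most genes that passed lie within 1 of the zero line.

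The 12 largest rises among well-detected genes were led by non-coding transcripts and by a few proteins with little presence in control muscle. Gm26870, a long intergenic RNA gene at chr9:3000282-3038313, was at 28.7, 35.9, 24.2, 32.3 and 20.02 CPM in 3mCON and at 9605, 7937, 9306, 5151 and 9455 in 3mTSCmKO, a log2 fold change of 8.197 ± 0.56 (adjusted p = 2.66e-13). Its longest transcript of 1170 nt repeats itself at a distance of 234 nt, so that a short read can match it in several places. Igfn1, an immunoglobulin and fibronectin domain protein of the Z-disc (chr1:135953578-136006342), rose from 55.8, 44.5, 19.5, 34.3 and 36.9 CPM to 1441, 2266, 1447, 269.6 and 1399.5, with the lowest 3mTSCmKO value in replicate 4, and its log2 fold change was 5.16 ± 0.43 (adjusted p = 2.61e-11). Rasd2, which encodes the small GTPase Rhes (chr8:75213944-75224113), rose from 3.08, 3.73, 17.2, 3.69 and 4.06 CPM to 195, 273, 150.4, 255 and 216, where the 1 control library above 5 CPM was 3mCON replicate 3 (log2 fold change 5.06 ± 0.38, adjusted p = 2.12e-12). Tpx2, a spindle assembly factor, was at 4.98, 5.64, 7.44, 5.24 and 5.998 CPM in 3mCON and 60.4, 60.4, 48.9, 24.4 and 40.2 in 3mTSCmKO (2.99 ± 0.29, adjusted p = 4.00e-10). The serine protease gene Htra4 rose by 3.39 ± 0.36, from 10.2 ± 3.75 to 107 ± 64.8 CPM (mean ± SD, n = 5).

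Non-coding genes made up much of the remaining leading rises: Gm10851 (5.32), C130080G10Rik (4.999), B230312C02Rik (4.405), Hectd2os (3.65), Mirg (3.62) and Rian (3.13). Of the 31-mers of C130080G10Rik, 37.2% also occur in transcripts of other genes, so that its value is uncertain. Mirg and Rian are maternally expressed RNAs of the imprinted Dlk1-Dio3 region on chromosome 12. Rian stood at 53.1, 36.8, 23.4, 38.2 and 36.9 CPM in 3mCON and at 219.8, 629, 333, 166 and 301 in 3mTSCmKO, with no overlap. Meg3, the neighbouring RNA of the same region, chosen after its values were seen, was at 84.04, 60.9, 59.8, 72.9 and 80.9 CPM in 3mCON and 159, 530.0, 258, 135 and 338 in 3mTSCmKO (1.99 ± 0.29, adjusted p = 2.13e-06), and all 3 were highest in 3mTSCmKO replicate 2. Over all 858 non-coding genes tested, 60 were higher and 103 lower. Lower calls thus outnumbered higher ones, the reverse of all 13543 genes, where 1549 (11.4%) were higher and 1127 (8.32%) lower.

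Largest among the falls was Aqp4, the water channel of the fast fiber membrane, which held 90.1, 102, 49.1, 64.6 and 92 CPM in 3mCON and 0.198, 0.457, 0.257, 1.31 and 0.756 in 3mTSCmKO. The groups lay far apart, with a log2 fold change of -6.87 ± 0.30 (adjusted p = 9.88e-20). Cntfr, the ligand-binding receptor of ciliary neurotrophic factor (chr4:41657498-41697089), went from 85.4, 129.7, 26.5, 63.6 and 90.8 CPM to 4.74, 5.095, 5.397, 7.74 and 11.01, and its lowest control value was that of 3mCON replicate 3 (-3.51 ± 0.35, adjusted p = 2.00e-09). Dkk3, a secreted protein of the Dickkopf family (chr7:112116017-112159057), went from 113, 127, 53.2, 115 and 111 CPM to 11.4, 12.1, 8.69, 3.55 and 12.2, again with the lowest control value in 3mCON replicate 3 and the lowest 3mTSCmKO value in replicate 4. Its log2 fold change was -3.45 ± 0.29 (adjusted p = 2.49e-11). Pak1, a kinase acting on the actin cytoskeleton and on glucose uptake in muscle (chr7:97788541-97912381), showed a tight separation, with 50.8, 46.8, 50.5, 44.5 and 56.6 CPM in 3mCON and 3.43, 4.77, 3.803, 6.78 and 4.64 in 3mTSCmKO (-3.39 ± 0.24, adjusted p = 2.28e-13).

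Other leading falls were those of the non-coding gene 5430431A17Rik (-2.92), the calcium-binding protein gene Efcab6 (-2.702), Irf5 (-2.39), Glb1l2 (-2.31), the BMP receptor Bmpr1b (-2.15), Fbp2 (-2.29) and Cish. Fbp2 encodes the muscle fructose bisphosphatase of glycogen resynthesis and fell from 34.1 ± 6.24 to 6.93 ± 1.94 CPM (mean ± SD, n = 5). Cish, a feedback inhibitor of cytokine signalling, was at 6.16, 6.46, 14.7, 37.1 and 7.52 CPM in 3mCON and 4.55, 1.05, 3.495, 1.98 and 1.48 in 3mTSCmKO, and 3mCON replicate 4 carried the highest control value (-2.58 ± 0.67, adjusted p = 0.00475). All 24 leading genes passed in each of the 10 fits without 1 library of either group.

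Around mTORC1 itself, 7 of 26 genes tested were higher and 3 lower, with a median log2 fold change of 0.24 against -0.02 over all genes. Of the higher members, 5 are brakes upstream of the kinase. Sesn1, Sesn2 and Sesn3 encode sestrins, leucine-responsive inhibitors that act through GATOR2, and Gatsl2 encodes Castor2, an inhibitor of the arginine-sensing branch. Sesn3 went from 54.3, 48.3, 51.3, 49.7 and 39.5 CPM in 3mCON to 197, 201, 171, 123 and 164 in 3mTSCmKO (1.81 ± 0.20, adjusted p = 1.04e-08). Sesn2 rose by 1.48 ± 0.19 and Sesn1 by 1.24 ± 0.19. Gatsl2 rose from 159, 149, 128, 142 and 124 CPM to 537, 601, 509.6, 351 and 635 (1.91 ± 0.16, adjusted p = 8.11e-12), so that the sestrins and Gatsl2 did not overlap between groups. Ddit4 (REDD1), a stress-induced inhibitor that acts through the Tsc1-Tsc2 complex, had the largest effect of the list, at 6.05, 15.4, 10.4, 23.6 and 13.5 CPM in 3mCON and 17.7, 116, 70.1, 269.5 and 175 in 3mTSCmKO. Replicate 1 of 3mTSCmKO lay inside the control range (3.23 ± 0.54, adjusted p = 3.23e-05).

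Of the kinase complex, Deptor, its inhibitory subunit, was at 158, 158, 90.5, 146 and 172 CPM in 3mCON and lower in every 3mTSCmKO library, at 62.5, 74.01, 54.9, 46.6 and 62.7 (-1.27 ± 0.21, adjusted p = 1.39e-05). Mtor (-0.01 ± 0.18, adjusted p = 0.99) and Rptor (0.15 ± 0.15, adjusted p = 0.532) did not pass. With edgeR over all groups neither Tsc2 (0.31, adjusted p = 0.0644) nor Rheb (-0.41, adjusted p = 0.0576) passed, but Tsc2 passed in 6 of 22 alternative fits, DESeq2 among them, and Rheb in 7, limma among them. Flcn, the folliculin that controls RagC, was lower (-0.46 ± 0.13, adjusted p = 0.00984), though without 3mTSCmKO replicates 3 and 4 its adjusted p was 0.0671. Eif4ebp1, the translation repressor 4E-BP1 that mTORC1 inactivates, was higher by 0.60 ± 0.18 (adjusted p = 0.0172), and Rragc by 0.32 ± 0.11 (adjusted p = 0.0312). Both calls were lost without single libraries, with adjusted p-values up to 0.0725 and 0.0925.

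In insulin and IGF signalling, 3 of 21 genes were higher and 2 lower, shares close to those of all genes. Tbc1d1, an Akt and AMPK target that restrains glucose transporter traffic, rose by 1.23 ± 0.21 (adjusted p = 3.00e-05). Igfbp5, an IGF binding protein, fell from 875 ± 90.8 to 485 ± 112 CPM (mean ± SD, n = 5, log2 fold change -0.85 ± 0.18). Igf2 was lower (-0.45 ± 0.14, adjusted p = 0.02), a call that was lost without the libraries that stood apart (adjusted p = 0.102), without 3mCON replicate 1 or 5 or 3mTSCmKO replicate 4 (adjusted p up to 0.0734) and without 3mTSCmKO replicates 3 and 4, where the log2 fold change was -0.29 (adjusted p = 0.238). Each of these fits left 1 lower member.

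Gene lists for 46 functions were read against the shares of all genes, 11.4% higher and 8.32% lower. The shares differed widely between functions. Counts of 1 or 2 members in a direction were unsteady: of 34 such counts, 25 changed when some 1 library was left out, and 11 fell to 0. Glucocorticoid receptor targets, ATF4 stress regulators, the Gadd45 and p53 list, lysosomal genes and chaperones of the endoplasmic reticulum (ER) held many higher members, while calcium handling, nucleotide synthesis, secreted factors and the dystrophin complex held more lower ones.

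**Figure D3:**
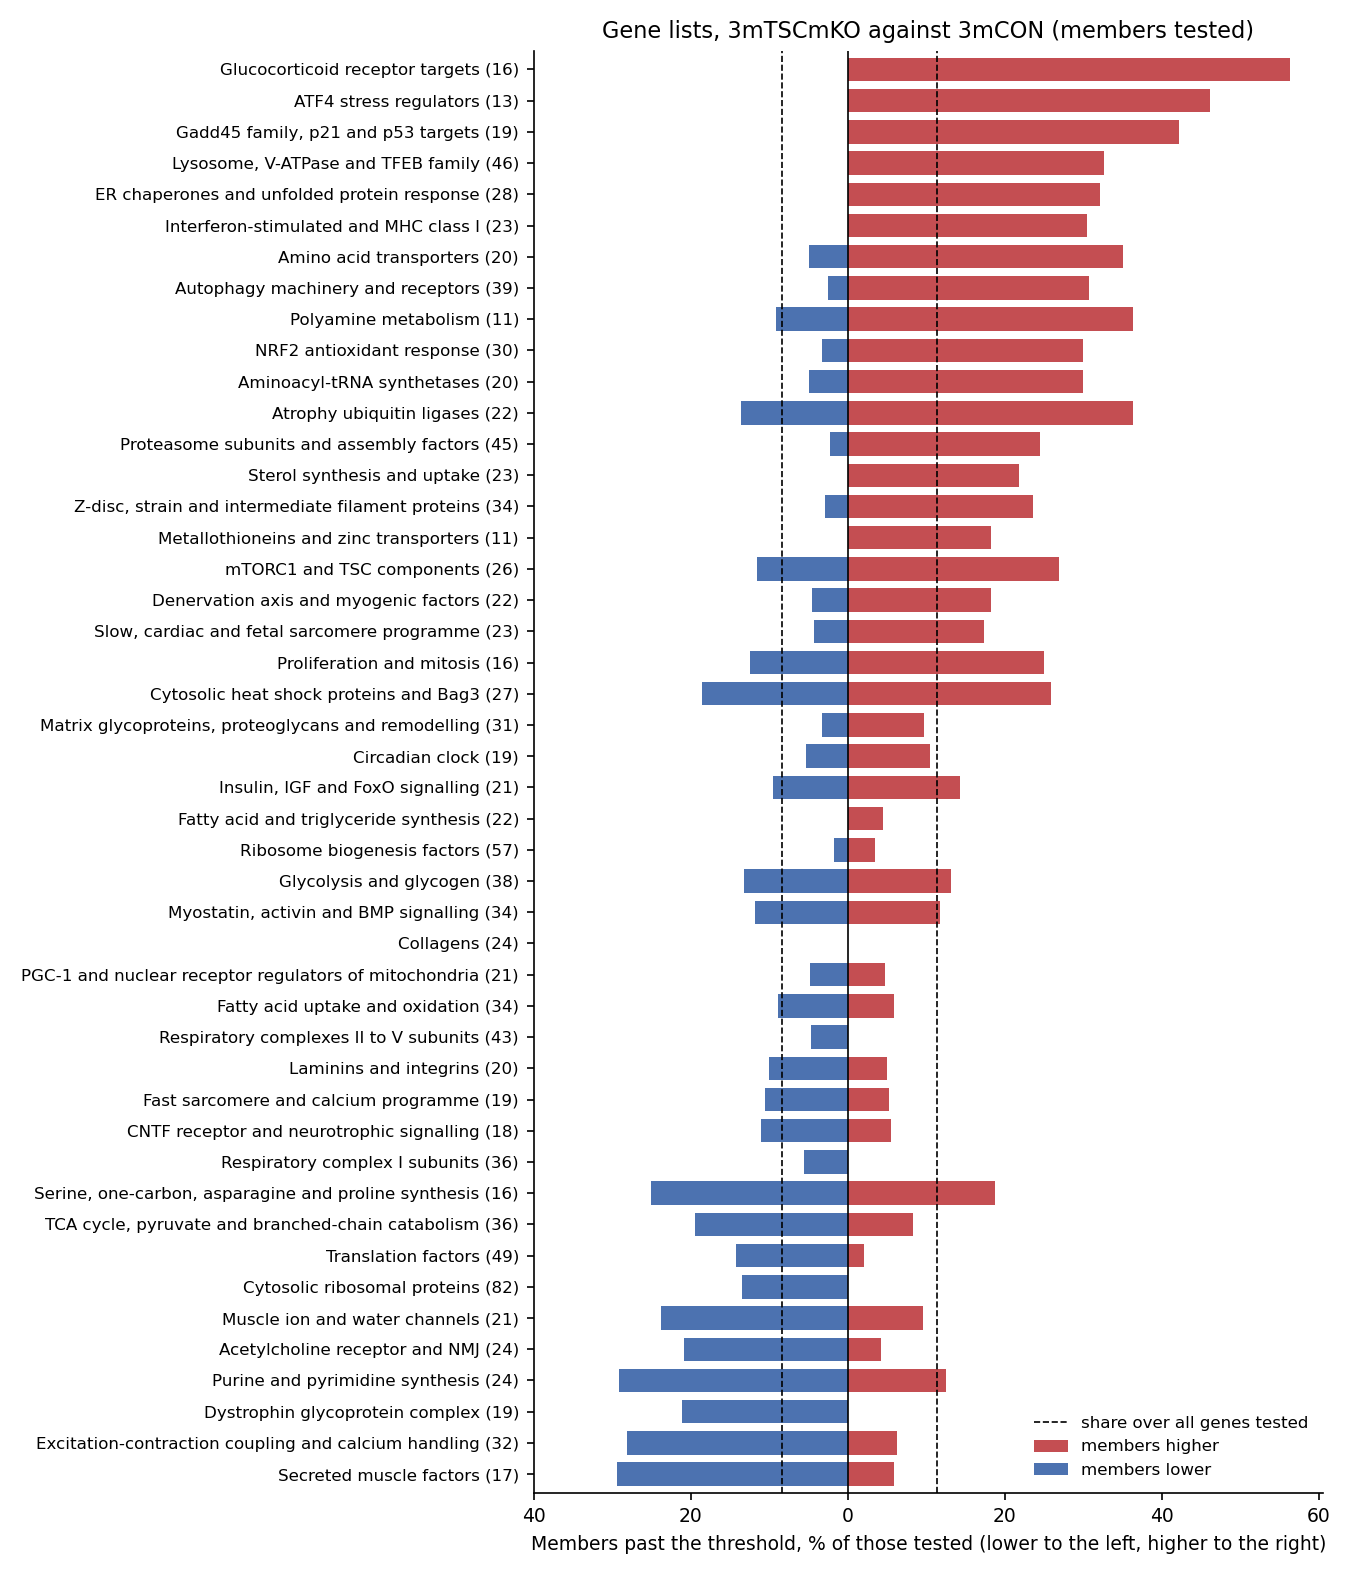
Share of tested members past the adjusted p of 0.05 in each gene list, higher in 3mTSCmKO to the right and lower to the left, with the number of members tested in brackets and dashed lines at the shares over all genes (11.4% and 8.32%). Glucocorticoid receptor targets (9 of 16 higher) stand at the top, and 0 of 24 collagens passed in either direction.

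Stress regulators and effectors under ATF4 held 6 higher and 0 lower members of 13 tested, with a median of 0.58. The median was 0.31 without 3mTSCmKO replicate 4 and 0.32 without 3mTSCmKO replicates 3 and 4, with 5 higher in each. Vldlr, the very low density lipoprotein receptor, rose from 857, 875, 1012, 879 and 734 CPM to 1743, 1644, 1450.0, 1224 and 1463 (0.79 ± 0.17, adjusted p = 0.000477). Ppp1r15a, which encodes GADD34, the phosphatase subunit that restarts translation after stress, rose by 0.82 ± 0.16, and Ddit3, which encodes the stress factor CHOP, by 0.70 ± 0.18. Trib3, a pseudokinase under ATF4, gave 1.05 ± 0.36 (adjusted p = 0.0321), and its call was lost without any of 5 libraries (adjusted p up to 0.116), without those that stood apart (0.125) and without 3mTSCmKO replicates 3 and 4 (0.0631). The transcript of Atf4 itself, looked at after values were seen, was level at 170.1 ± 15.7 CPM in 3mCON and 168 ± 14.4 in 3mTSCmKO (adjusted p = 0.96).

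In the amino acid branch of ATF4 some genes rose and others fell. Mthfd2, the mitochondrial folate enzyme, rose from 3.19, 2.82, 4.63, 3.33 and 3.63 CPM to 27.1, 22.1, 17.9, 27.1 and 19.8 (2.68 ± 0.23, adjusted p = 2.61e-11), and Aldh1l1, a cytosolic folate enzyme, by 1.31 ± 0.18. Psat1, of serine synthesis, rose by 1.13 ± 0.25 (adjusted p = 0.00101), and Asns, asparagine synthetase, chosen after its values were seen, had 0.68 ± 0.28 (adjusted p = 0.0875) and passed without 3mCON replicate 5 or without 3mTSCmKO replicate 5. In the other direction, Aldh1l2 (-0.94 ± 0.18) and the serine hydroxymethyltransferase gene Shmt1 (-0.83 ± 0.21) fell. In all, 3 of 16 genes of serine, one-carbon, asparagine and proline synthesis were higher and 4 lower. Without 3mCON replicate 5 or 3mTSCmKO replicate 5 the higher members were 5, and without 3mCON replicate 1, 3mTSCmKO replicate 1 or 3, or 3mTSCmKO replicates 3 and 4 together, the lower ones were 2. Of 20 amino acid transporters, 7 were higher and 1 lower (3 lower without 3mTSCmKO replicate 4). Slc7a5, the LAT1 leucine transporter, went from 2.41, 2.64, 3.06, 2.11 and 3.04 CPM to 8.43, 9.08, 5.29, 7.29 and 5.58 (1.43 ± 0.21, adjusted p = 1.31e-06). The glycine transporter gene Slc6a9 rose by 1.26 ± 0.20, Slc7a6 by 1.07 ± 0.12 and Slc43a2 by 1.06 ± 0.15, while Slc38a3, a glutamine transporter gene, fell (-0.59, adjusted p = 0.00328).

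Cytosolic aminoacyl-tRNA synthetases, which charge tRNAs with amino acids, held 6 higher and 1 lower of 20, and the lower call was lost without any of 8 of the 10 libraries. Sars, the seryl enzyme, rose from 96.6, 94.3, 78.7, 98.8 and 99.9 CPM to 156, 172, 142, 141 and 151 (0.70 ± 0.09, adjusted p = 7.86e-08), Gars by 0.64 ± 0.10, Aars by 0.47 ± 0.13 and Hars by 0.44 ± 0.10. Without 3mTSCmKO replicate 2, 3 were higher, and Aars had an adjusted p of 0.0536.

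The CARE motif that ATF4 and its C/EBP partners bind was sought as TGATGNAA on both strands in the 250 bases before the transcription start, for 10375 genes with a RefSeq promoter sequence (GRCm38.p6). It occurred in 2.49% of all these promoters, in 4 of 13 of the ATF4 list, in 3 of 12 synthetases and in 3 of the 4 synthetases with a promoter that were higher (Aars, Gars and Tars, the call of Tars being lost without any of 5 libraries). Of the 6 higher members of the ATF4 list 1 held it (Vldlr), of 14 amino acid transporters with a promoter 1 and of the 5 higher among these 0, and of all higher genes 2.61%, close to the share of all promoters. Promoters of a higher member of each list are shown with the motif in capitals. The Vldlr stretch lies at chr19:27216770-27217019 on the plus strand and the Gars stretch at chr6:55037751-55038000 on the plus strand.
Vldlr: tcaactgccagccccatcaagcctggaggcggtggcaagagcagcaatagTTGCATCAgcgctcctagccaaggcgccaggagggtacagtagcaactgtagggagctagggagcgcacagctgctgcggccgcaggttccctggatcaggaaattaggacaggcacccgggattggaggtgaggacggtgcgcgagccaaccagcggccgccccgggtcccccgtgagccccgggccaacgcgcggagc
Gars: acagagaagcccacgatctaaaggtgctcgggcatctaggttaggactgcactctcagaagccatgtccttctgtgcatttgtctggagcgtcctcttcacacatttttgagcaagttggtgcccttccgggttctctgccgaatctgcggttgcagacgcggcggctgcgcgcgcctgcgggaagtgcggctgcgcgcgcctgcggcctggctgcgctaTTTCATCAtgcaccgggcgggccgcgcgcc

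Few genes of the translation machinery were higher. Among 49 translation factors 1 was higher (Eif4a1, adjusted p = 0.0345, a call lost without any of 5 libraries, with an adjusted p up to 0.0934) and 7 lower, with Pabpc4, a poly(A)-binding protein gene, going from 464, 456, 465, 441 and 416 CPM to 249, 268, 254, 228 and 302 (-0.79 ± 0.09, adjusted p = 1.89e-08). Eef2, the translocation factor of elongation, fell (-0.77 ± 0.11) and Eif4b, a helicase cofactor of initiation, (-0.67 ± 0.11). Eif1 fell (-0.42 ± 0.11), although 14.5% of its 31-mers are shared with other genes. Of 82 cytosolic ribosomal proteins 0 were higher and 11 lower, with a median of -0.23. Rpl4 had 894 ± 70.1 CPM in 3mCON and 591 ± 26.7 in 3mTSCmKO (-0.60 ± 0.15), and Rpl3l, the muscle paralog of Rpl3, 388 ± 16.02 and 267 ± 33.9 (-0.54 ± 0.14). This count depended on the fit, with 5 lower without 3mTSCmKO replicates 3 and 4, 5 to 7 without any one of 3mCON replicates 1 and 4 and 3mTSCmKO replicates 1 and 3, and 33 when only the groups at 3 months were fitted. Ribosome biogenesis factors held 2 higher and 1 lower of 57. The latter was Myc, a transcription factor of cell growth, at 7.06, 5.64, 7.81, 10.3 and 6.51 CPM in 3mCON and 1.91, 4.31, 2.42, 3.78 and 3.02 in 3mTSCmKO (-1.28 ± 0.29, adjusted p = 0.00118). Ddx56, a nucleolar helicase gene, was higher by 0.55 ± 0.12.

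ER chaperones and unfolded protein response genes held rises and no falls: 9 of 28 were higher and 0 lower. Xbp1, the transcription factor of the response, went from 50.2, 52.7, 55.2, 50.1 and 55.5 CPM to 121, 106, 102, 87.8 and 98.1 (0.96 ± 0.10, adjusted p = 1.34e-09). Hspa5, which encodes the chaperone BiP, went from 233, 243, 197, 214 and 269.9 CPM to 462, 359, 327, 322 and 292 (0.61 ± 0.12, adjusted p = 0.000191). Sdf2l1 rose by 0.90 ± 0.21 and Selenos, of ER-associated degradation, by 0.79 ± 0.12. The ER stress element was sought as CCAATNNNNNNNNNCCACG on both strands in the same windows. It was present in 0.173% of all promoters, 18 in number, and 8 of these belonged to the 22 list members with a promoter. Hspa5, Canx, Pdia6 and Dnajc3 were the higher members among them (Canx with an adjusted p of 0.0496, a call lost without any of 8 of the 10 libraries), and 0.326% of the promoters of all higher genes held it. The promoters of Hspa5 (chr2:34771840-34772089, plus strand) and of Pdia6, a protein disulfide isomerase gene (chr12:17266339-17266588, plus strand), are shown with the element in capitals.
Hspa5: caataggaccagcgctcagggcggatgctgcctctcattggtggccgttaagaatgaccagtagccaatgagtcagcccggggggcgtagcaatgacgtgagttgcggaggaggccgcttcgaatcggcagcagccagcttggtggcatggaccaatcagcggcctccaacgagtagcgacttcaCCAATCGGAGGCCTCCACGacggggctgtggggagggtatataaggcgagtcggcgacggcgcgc
Pdia6: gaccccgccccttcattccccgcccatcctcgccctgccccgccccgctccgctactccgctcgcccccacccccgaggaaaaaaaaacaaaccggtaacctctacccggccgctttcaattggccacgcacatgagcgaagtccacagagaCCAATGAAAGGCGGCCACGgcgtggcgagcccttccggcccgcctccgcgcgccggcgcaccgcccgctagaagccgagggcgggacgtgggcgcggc

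Among cytosolic heat shock proteins 7 of 27 were higher and 5 lower. Small heat shock proteins and Bag3, which handle misfolded Z-disc proteins, led the rises. Hspb7 went from 184, 239, 540.5, 312 and 296 CPM to 1719, 1509.9, 1397, 1813 and 1639.8, where the highest control value was again 3mCON replicate 3 (2.36 ± 0.26, adjusted p = 1.13e-08). Hspb1 rose by 1.02 ± 0.24, Bag3 by 0.70 ± 0.12 and Dnajb4 by 0.64 ± 0.14. The 5 lower members, with Dnajb5 at -0.51 ± 0.11, were reduced to 1 without 3mTSCmKO replicates 3 and 4, and to 1 or 2 without any one of 3mCON replicates 1, 2, 4 and 5 and 3mTSCmKO replicates 2, 3 and 5.

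Antioxidant genes under NRF2 held 9 higher and 1 lower of 30. Gpx3, the secreted glutathione peroxidase, rose from 228, 233, 162, 295 and 251 CPM to 1679, 1527, 1508, 1694 and 2023, with the groups far apart (2.85 ± 0.23, adjusted p = 9.52e-12). Srxn1, which repairs peroxiredoxins, rose by 1.37 ± 0.22 and Gpx4, which reduces lipid peroxides, by 0.98 ± 0.16. Ftl1, ferritin light chain, had 0.90 ± 0.18, and other genes hold 54.4% of its 31-mers. Sod2, the mitochondrial superoxide dismutase gene, fell from 369 ± 34.6 to 234 ± 21.4 CPM (-0.66 ± 0.11), with 22.2% of its 31-mers shared.

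Biosynthetic lists moved in both directions. Of 24 genes of purine and pyrimidine synthesis 3 were higher and 7 lower, among them Pfas, of the purine ring pathway, at 24.1, 26.3, 23.3, 26.2 and 24.7 CPM in 3mCON and 10.7, 11.5, 11.4, 9.82 and 11.3 in 3mTSCmKO (-1.19 ± 0.26, adjusted p = 0.000664). Impdh2, of guanine nucleotide synthesis, fell (-0.62 ± 0.12) and Prps1 (-0.75 ± 0.13), with 18.5% of the 31-mers of Prps1 shared. Polyamine genes held 4 higher and 1 lower of 11. Odc1, ornithine decarboxylase, stood at 59.2, 63.4, 148, 72.3 and 70.96 CPM in 3mCON and 132, 135, 123, 229.9 and 168 in 3mTSCmKO (0.93 ± 0.22), and 3mCON replicate 3 lay inside the knockout range. Oaz2, an antizyme gene, rose by 0.65 ± 0.11. Smox, spermine oxidase, fell from 114, 162, 122, 137 and 142 CPM to 46.9, 55.2, 51.3, 50.4 and 80.3 (-1.25 ± 0.22, adjusted p = 3.50e-05). Sterol synthesis and uptake held 5 higher and 0 lower of 23, led by Cyp51 (1.06 ± 0.14) and Insig1 (0.96 ± 0.17). Of 22 genes of fatty acid and triglyceride synthesis, Thrsp, the lipogenic Spot14 gene, passed, at 5.49, 7.28, 11.98, 9.34 and 7.94 CPM in 3mCON and 24.2, 34.1, 39.6, 45.1 and 47.4 in 3mTSCmKO (2.17 ± 0.24, adjusted p = 1.13e-08).

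Autophagy, lysosomes and the proteasome each held more higher than lower members. Of 39 autophagy genes, 12 were higher and 1 lower. Sqstm1, which encodes the cargo receptor p62, went from 437, 431, 462, 503 and 581 CPM to 1204, 1409.8, 925, 872 and 870.1 (1.13 ± 0.13, adjusted p = 2.30e-08). Gabarapl1 and Map1lc3a, both of the Atg8 family that coats autophagosomes, rose by 0.77 ± 0.12 and 0.62 ± 0.15. Fam134b, an ER-phagy receptor gene, rose by 0.89 ± 0.22, although the highest control value of 73.4 to 179.8 CPM (lowest to highest) belonged to 3mCON replicate 3.

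Of 46 genes for lysosomal enzymes, the proton pump and the TFEB family, 15 were higher and 0 lower. Npc1, the cholesterol exporter of the lysosome, went from 72.8, 114, 98.1, 87.7 and 88.5 CPM to 186, 218, 144, 211 and 173 (1.01 ± 0.19, adjusted p = 8.72e-05). The protease genes Ctsd (0.91 ± 0.12) and Ctsl (0.84 ± 0.19) and the glucuronidase gene Gusb (0.83 ± 0.13) also rose. Ctsd stood at 463, 492, 457, 555 and 601 CPM in 3mCON and 1047, 1077, 861, 914 and 921 in 3mTSCmKO. The CLEAR motif of TFEB and its relatives, sought as TCACGTGA, occurred in 1.74% of all promoters and in 4 of 35 of this list (Ctsa, Ctsd, Mcoln1 and Atp6v1a), of which Ctsd was 1 of the 9 higher members with a promoter. It occurred in 1 of 31 autophagy genes, in 0 of the 8 higher ones, and in 1.31% of all higher genes. Its promoter at chr7:142387828-142388077, minus strand, is given 5′ to 3′ with the motif in capitals.
Ctsd: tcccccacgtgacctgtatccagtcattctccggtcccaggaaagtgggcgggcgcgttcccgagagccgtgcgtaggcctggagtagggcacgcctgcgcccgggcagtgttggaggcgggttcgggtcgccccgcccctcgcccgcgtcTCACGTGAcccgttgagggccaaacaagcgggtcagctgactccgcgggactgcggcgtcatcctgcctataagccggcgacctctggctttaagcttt

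Proteasome subunits and assembly factors held 11 higher and 1 lower of 45. Psme4, the PA200 activator, stood out with 521, 563, 471, 513 and 498 CPM in 3mCON and 1927, 1755, 1529, 1204 and 1381 in 3mTSCmKO (1.603 ± 0.23, adjusted p = 1.53e-06). Psmd8 (1.08 ± 0.13), the transcription factor of proteasome genes Nfe2l1 (0.77 ± 0.14) and Psmb5 (0.47 ± 0.11) followed, and Psme1, of the interferon-induced activator, fell (-0.48). The number of higher members was 7 without the libraries that stood apart, 6 to 7 without any one of 3mCON replicates 1, 2 and 3 and 3mTSCmKO replicates 1 and 2, and 5 under upper-quartile scaling.

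Ubiquitin ligases of muscle atrophy held 8 higher and 3 lower of 22. Trim63, which encodes MuRF1, a ligase for thick filament proteins, was at 32.6, 33.9, 41.2, 32.5 and 34.5 CPM in 3mCON and 69.3, 84.9, 56.6, 169 and 131 in 3mTSCmKO (1.55 ± 0.26, adjusted p = 2.24e-05). Fbxo32, which encodes atrogin-1, was at 698, 427, 647, 487 and 485 CPM in 3mCON and 1352, 1396, 856, 951 and 1118 in 3mTSCmKO (1.05 ± 0.23, adjusted p = 0.000885). Neither overlapped between groups, and the highest Trim63 values were in 3mTSCmKO replicates 4 and 5. Fbxo30, the MUSA1 ligase gene, rose from 26.6, 26.7, 26.2, 26.2 and 26.7 CPM to 57.7, 40.9, 44.9, 46.3 and 45.2 (0.83 ± 0.14), and Fbxo40, a ligase gene for the insulin receptor substrate, from 448 ± 33.3 to 677 ± 88.2 (mean ± SD, n = 5, log2 fold change 0.60 ± 0.14). Trim32 (0.64 ± 0.15) and Traf6 (0.61 ± 0.14) were also higher. The 3 lower members became 0 without 3mTSCmKO replicates 3 and 4, without those that stood apart, and without 3mTSCmKO replicate 3 or 5, and 1 without 3mCON replicate 1 or 3mTSCmKO replicate 4.

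Of 19 genes of the Gadd45 family, p21 and the p53 targets, 8 were higher and 0 lower, with a median of 0.40. Gadd45a, a stress gene that rises in denervated muscle, went from 27.2, 32.5, 14.5, 32.7 and 35.4 CPM to 173, 114, 95.3, 64.4 and 106 (1.96 ± 0.27, adjusted p = 7.72e-07). Gadd45b did not pass (0.13 ± 0.26, adjusted p = 0.782). Gadd45g was at 9.46, 25.4, 20.7, 44.1 and 40.9 CPM in 3mCON and 20.6, 88.9, 49.7, 87.2 and 111 in 3mTSCmKO, with overlap, and its log2 fold change of 1.35 ± 0.42 (adjusted p = 0.021) lost the call without the libraries that stood apart (adjusted p = 0.0843), without 3mCON replicate 1 or 3 or 3mTSCmKO replicate 5 (adjusted p up to 0.0716), in the groups at 3 months (0.0587) and with both groups alone (0.0873). Eda2r, a TNF receptor superfamily gene and p53 target, rose from 15.9, 16.2, 30.1, 16.9 and 16.8 CPM to 90.1, 75.7, 57.98, 73.7 and 38.6 (1.801 ± 0.29, adjusted p = 1.49e-05). Trp53inp1 (0.82 ± 0.16), Zmat3 (0.77 ± 0.20), Phlda3 (0.76 ± 0.13) and Mdm2 (0.40 ± 0.10), all p53 targets, were higher too. Cdkn1a, which encodes the cell cycle inhibitor p21, had 0.72 ± 0.24 (adjusted p = 0.0307), and its call was lost without any of 6 of the 10 libraries, with an adjusted p up to 0.146. Without the libraries that stood apart its log2 fold change was 0.42 (adjusted p = 0.274).

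Of 16 glucocorticoid receptor targets 9 were higher and 0 lower, with a median of 0.78. Ddit4 and Sesn1 are shared with the mTORC1 list. The remaining genes given here were picked after their values were seen. Glul, glutamine synthetase, was at 409, 651, 430.0, 505 and 585 CPM in 3mCON and 995, 1204, 913, 1227 and 1366 in 3mTSCmKO (1.15 ± 0.20, adjusted p = 3.33e-05), without overlap. Tsc22d3, which encodes GILZ, had 0.80 ± 0.21, Klf15 0.61 ± 0.17 and Fkbp5 1.17 ± 0.34. Of these, Fkbp5 overlapped between groups, at 19.7 to 63.5 CPM in 3mCON (lowest to highest) and 40.2 to 113 in 3mTSCmKO, and lost its call without the libraries that stood apart (adjusted p = 0.127). The number of higher members was 5 without those libraries, 5 without 3mTSCmKO replicate 4 alone, 6 without 3mCON replicate 1 and 6 without 3mTSCmKO replicates 3 and 4.

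**Figure D4:**
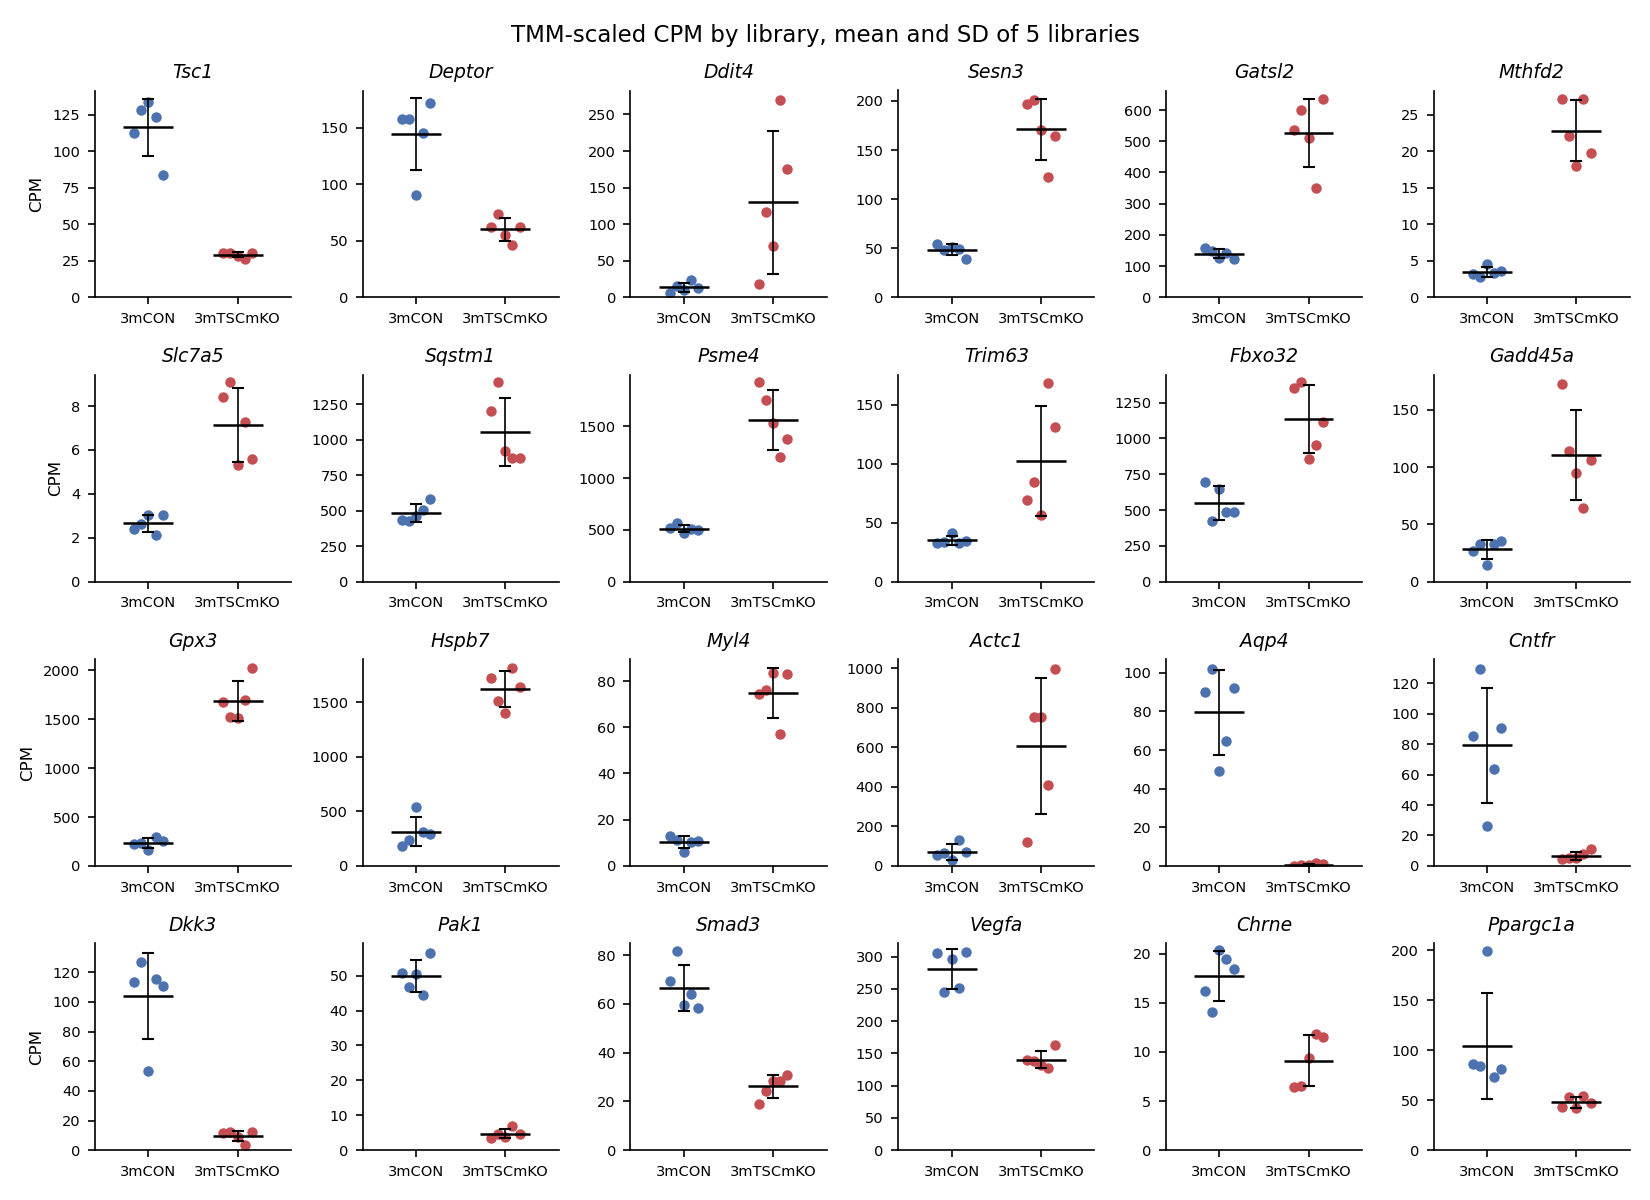
TMM-scaled CPM of 24 genes in the 5 libraries of 3mCON (blue) and of 3mTSCmKO (red), each panel starting at 0, with the mean as a line and the SD as a bar. Tsc1, Deptor, Aqp4, Cntfr, Dkk3, Pak1, Smad3, Vegfa and Chrne are lower in all 3mTSCmKO libraries than in any 3mCON library, while Ddit4 and Actc1 keep 1 3mTSCmKO library within the control range.

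Genes of energy metabolism moved in both directions. Pdp1, the phosphatase that activates pyruvate dehydrogenase, went from 83.04, 75.1, 59.4, 78.5 and 65.8 CPM to 284, 242, 205, 131 and 185 (1.53 ± 0.18, adjusted p = 1.60e-08). Genes of the TCA cycle, pyruvate and branched-chain catabolism held 7 lower (4 without 3mTSCmKO replicates 3 and 4) and 3 higher of 36, with Suclg2 at 71.95, 70.2, 67.4, 70.1 and 72.8 CPM in 3mCON and 40.3, 38.7, 42.2, 41.8 and 42.1 in 3mTSCmKO (-0.78 ± 0.11, adjusted p = 1.73e-06). Pdha1, a subunit of pyruvate dehydrogenase, fell (-0.57 ± 0.12) and Idh3a, of isocitrate dehydrogenase, (-0.54 ± 0.12). Of glycolysis and glycogen genes 5 of 38 were higher and 5 lower. The lower members were 3 without 3mCON replicate 4 or 5 or 3mTSCmKO replicate 1 or 3 and 11 with limma, the higher ones were 3 without 3mTSCmKO replicate 4, and 2 were higher and 2 lower without 3mTSCmKO replicates 3 and 4. Pfkfb4 (0.88 ± 0.13) and the glucose transporter gene Slc2a1 (0.75 ± 0.16) rose, and Ldha (-0.66 ± 0.16), lactate dehydrogenase, and Eno3 (-0.46 ± 0.12), the muscle enolase, fell. Eno3 had an adjusted p of 0.0626 without 3mTSCmKO replicates 3 and 4. Respiratory subunits held 0 higher and 2 lower of 36 for complex I (4 lower without 3mTSCmKO replicate 4), with Ndufs1 at -0.52 ± 0.13, and 0 higher and 2 lower of 43 for complexes II to V. For the latter, 0 were lower without 3mCON replicate 2 or 5, 3mTSCmKO replicate 2 or both of 3mTSCmKO replicates 3 and 4, and 6 without the libraries that stood apart. Ppargc1a, which encodes PGC-1α, the coactivator of mitochondrial biogenesis, was at 85.9, 84.4, 199, 73.03 and 81.1 CPM in 3mCON and 43.03, 52.98, 42.4, 54.2 and 47.1 in 3mTSCmKO. Its log2 fold change of -1.13 ± 0.34 (adjusted p = 0.0172) was -0.81 without the libraries that stood apart, where it no longer passed (adjusted p = 0.13).

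In the contractile apparatus, slow, cardiac and fetal isoforms held 4 higher and 1 lower of 23, with a median of 0.52. The median rested on single libraries, at 0.12 without 3mTSCmKO replicate 4, 0.28 without 3mCON replicate 5, 0.34 without 3mTSCmKO replicate 5 and 0.06 without 3mTSCmKO replicates 3 and 4, while 4 or 5 members were higher in each of these fits. Myl4, the atrial and embryonic light chain gene, rose from 12.8, 11.4, 5.87, 10.4 and 10.9 CPM to 74.4, 76.3, 83.6, 57.1 and 82.9 (2.88 ± 0.26, adjusted p = 9.11e-11). Actc1, cardiac actin, which is made in fetal and regenerating fibers, rose from 54.3, 66.1, 29.7, 133 and 70.3 CPM to 121, 752, 754, 409 and 999, where 3mTSCmKO replicate 1 lay within the control range (3.101 ± 0.52, adjusted p = 2.95e-05). Myl2, the slow regulatory light chain, was at 13.9, 22.5, 103, 26.8 and 9.21 CPM in 3mCON and 152, 102, 146, 236 and 90.7 in 3mTSCmKO (2.03 ± 0.45, adjusted p = 0.00101, but 0.0516 when both groups were fitted alone). Atp2a2, the slow calcium pump SERCA2, was at 68.6, 61.7, 146, 75.8 and 48.7 CPM in 3mCON and 329, 132, 391, 492 and 209.9 in 3mTSCmKO (1.95 ± 0.33, adjusted p = 3.08e-05). Both were highest among controls in 3mCON replicate 3 and highest among knockouts in replicate 4. Mybph, a myosin-binding protein gene of denervated muscle, had -1.86 ± 0.61 (adjusted p = 0.0284), which did not pass without 3mTSCmKO replicates 3 and 4 (adjusted p = 0.188). Its call was also lost without any one of 3mCON replicates 2 and 5 and 3mTSCmKO replicates 1, 3 and 4 (adjusted p up to 0.0839). The same held in the groups at 3 months (0.0747), with insert size as a term (0.106) and when both groups were fitted alone (0.134).

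No myosin heavy chain passed with edgeR over all groups, but Myh1 passed in 10 of 22 alternative fits, DESeq2 (adjusted p = 0.0372) among them, and Myh4 without 3mTSCmKO replicate 2. Myh4, of the fastest 2B fibers, stood at 42758 ± 9886 CPM in 3mCON and 33809 ± 14264 in 3mTSCmKO (mean ± SD, n = 5, log2 fold change -0.34 ± 0.21), Myh1 at -0.57 ± 0.21, Myh2 at -0.15 ± 0.36 and the slow Myh7 at 0.82 ± 0.49, with 22.9% to 37.7% of their 31-mers shared among genes. Of 19 genes of the fast programme 1 was higher and 2 lower. The lower members were 6 without 3mTSCmKO replicate 2, 4 without 3mCON replicate 3 or 3mTSCmKO replicate 5, 5 with DESeq2, 1 without any one of the other 7 libraries and 0 without 3mTSCmKO replicates 3 and 4. Mylk2, the kinase of the fast light chain, rose by 0.64 ± 0.15 (adjusted p = 0.00157), while Mybpc2 (-0.62 ± 0.17, adjusted p = 0.00653) and Atp2a1 (-0.42 ± 0.15, adjusted p = 0.0388), which encodes the fast pump SERCA1, were lower. The call of Atp2a1 was lost without any of 8 of the 10 libraries, with an adjusted p up to 0.136, and both were lost when both groups were fitted alone. They had adjusted p-values of 0.159 for Mybpc2 and 0.441 for Atp2a1 without 3mTSCmKO replicates 3 and 4. At the Z-disc and among strain and filament proteins, 8 of 34 were higher (5 without 3mCON replicate 5) and 1 lower. Igfn1 led and Nrap, an actin-anchoring protein gene, rose from 1276 ± 167 to 2465 ± 532 CPM (mean ± SD, n = 5, log2 fold change 0.95 ± 0.22).

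Membrane excitation and calcium release held more lower members. In excitation-contraction coupling 9 of 32 were lower and 2 higher. Mrln, which encodes myoregulin, a small inhibitor of the calcium pump, fell from 24.97, 20.5, 31.9, 30.5 and 25.01 CPM to 10.1, 13.4, 8.53, 14.3 and 11.01 (-1.22 ± 0.28, adjusted p = 0.00141). Camk2b, a calmodulin kinase gene, fell from 233, 228, 212, 234 and 189 CPM to 97.5, 132, 93.1, 78.1 and 120.3 (-1.07 ± 0.16, adjusted p = 2.05e-06), and Cacna1s, the voltage sensor of the calcium release unit, (-0.64 ± 0.15). The number lower was 4 without 3mTSCmKO replicates 3 and 4, and Cacna1s then had an adjusted p of 0.0548. Of 21 ion and water channel genes 5 were lower (3 without 3mTSCmKO replicates 3 and 4) and 2 higher. Besides Aqp4, the potassium channel gene Kcnq5 (-0.89 ± 0.22) and Atp1b1 (-0.78 ± 0.16), a subunit of the sodium pump, fell. Slc12a2, the sodium, potassium and chloride cotransporter NKCC1, rose from 92.4, 101, 75.3, 89.5 and 85.1 CPM to 235, 199, 147, 134 and 125 (0.92 ± 0.20). In the dystrophin glycoprotein complex 4 of 19 were lower (2 without 3mTSCmKO replicates 3 and 4) and 0 higher. Sgca, a sarcoglycan gene, was among the lower members, at 131, 142, 144, 148 and 141 CPM in 3mCON and 97.7, 124, 97.2, 85.2 and 108 in 3mTSCmKO (-0.46 ± 0.14), with an adjusted p of 0.162 without 3mTSCmKO replicates 3 and 4.

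At the neuromuscular junction (NMJ), 5 of 24 genes were lower and 1 higher, with a median of -0.34. Schwann cells also sit at the junction, and the log2 fold changes of all 10 of their markers were below 0, with a median of -0.37 and 0 past the test. Their summed level was 163 to 344 CPM in 3mCON and 113 to 367 in 3mTSCmKO, where replicate 4 was highest, and their median was -0.71 without that library and -0.58 without those that stood apart. Their part in the values of the junction was not tested. Chrne, the adult ε subunit of the acetylcholine receptor, fell from 16.2, 14.1, 20.4, 19.5 and 18.4 CPM to 6.39, 6.53, 9.41, 11.8 and 11.5, without overlap (-0.95 ± 0.18, adjusted p = 0.000107). Lrp4, the agrin receptor, fell from 24.1, 17.6, 21.1, 21.1 and 18.6 CPM to 13.5, 9.47, 14.2, 10.6 and 12.8 (-0.76 ± 0.14, adjusted p = 8.93e-05). Chrna1, the α subunit, was lower (-0.49 ± 0.16, adjusted p = 0.0243), Ache, acetylcholinesterase, (-0.56 ± 0.19, adjusted p = 0.0289) and Rapsn, which clusters receptors, (-0.46 ± 0.14, adjusted p = 0.0141). These last calls were lost without single libraries and without 3mTSCmKO replicates 3 and 4, which left 2 lower members, while 3 were left without 3mCON replicate 4 or 3mTSCmKO replicate 1 or 4. Lamb2, the synaptic laminin chain, was higher by 0.54 ± 0.14 (adjusted p = 0.00433, but 0.0531 with limma). Chrng, the fetal γ subunit that reappears after denervation, was close to 0 in both groups, at 0.0893 to 0.289 CPM in 3mCON and 0 to 0.144 in 3mTSCmKO. Musk, the kinase of the agrin receptor, did not pass (-0.35 ± 0.27, adjusted p = 0.403).

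Of 22 genes of the denervation axis and the myogenic factors, 4 were higher (18.2%, Hdac9, Myf6, Mef2c and Mef2d, the last of these lost without any of 3 libraries and both Mef2 genes with limma) and 1 lower (4.55%), beside 11.4% and 8.32% of all genes. The call of Mef2c was also lost without the libraries that stood apart (adjusted p = 0.057) and without 3mTSCmKO replicates 3 and 4 (adjusted p = 0.0626). Myog (-0.81 ± 0.42, adjusted p = 0.177), Runx1 (0.05 ± 0.23, adjusted p = 0.91) and Ncam1 (-0.38 ± 0.18, adjusted p = 0.144) did not pass, though Ncam1 passed when both groups were fitted alone. Hdac4, the deacetylase that represses Dach2 after denervation, did not pass either (-0.19 ± 0.17, adjusted p = 0.505). Dach2, a repressor of Myog, was at 5.15, 4.91, 10.04, 5.68 and 2.703 CPM in 3mCON and 0.329, 0.588, 0.565, 6.53 and 0.864 in 3mTSCmKO, where replicate 4 lay within the control range (-1.58 ± 0.53, adjusted p = 0.03). Its call was lost without any of 5 libraries, with an adjusted p up to 0.11. Hdac9 rose by 0.88 ± 0.25 and Myf6, the myogenic factor of mature fibers, by 0.60 ± 0.17.

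Several secreted factors were lower. Among secreted muscle factors, 5 of 17 were lower and 1 higher. The higher one had a log2 fold change of 2.68, and its call was lost in 2 of the fits without 1 library. Vegfa, the main angiogenic factor, fell from 305, 245, 296, 251 and 308 CPM to 139.8, 139, 132, 128 and 163 (-1.002 ± 0.12, adjusted p = 7.95e-08). Fndc5, the precursor of irisin, fell (-0.97 ± 0.16) and Fgf2 (-0.78 ± 0.17). Of 34 genes of myostatin, activin and BMP signalling 4 were higher and 4 lower, though 1 was higher without 3mCON replicate 3 or without 3mTSCmKO replicate 1, and 2 without 3mCON replicate 1 or 2 or 3mTSCmKO replicate 2 or 3. Smad3, the transducer of myostatin and TGFβ, fell from 69.3, 81.7, 59.4, 63.9 and 58.5 CPM to 19.1, 24.2, 28.5, 28.2 and 30.6 (-1.34 ± 0.19, adjusted p = 1.13e-06), and Acvr1, a BMP type I receptor gene, (-0.62 ± 0.12). Collagens gave 0 calls of 24 with edgeR (1 lower at an unadjusted p under 0.05, and 1 lower with DESeq2), with Col1a1 at -0.63 ± 0.44 (adjusted p = 0.349) and Col3a1 at -0.27 ± 0.33 (adjusted p = 0.629). The median of the 24 was -0.36 (-0.18 without 3mCON replicate 1), and 1 of them lay above 0. Among other matrix genes 3 of 31 were higher and 1 lower. Lox, the enzyme that crosslinks collagen, rose from 33.9, 31.8, 36.7, 19.4 and 16.2 CPM to 123, 116, 104, 64.2 and 74.2 (1.7999 ± 0.29, adjusted p = 1.49e-05), and the protease gene Adamts1 by 0.93 ± 0.22.

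Interferon-stimulated and MHC class I genes held 7 higher and 0 lower of 23. Irf7, the amplifying factor of the response, rose from 2.18, 2.46, 1.94, 2.53 and 3.38 CPM to 9.69, 8.95, 12.03, 4.06 and 7.67 (1.77 ± 0.28, adjusted p = 8.32e-06). Isg15, a ubiquitin-like modifier, was low in both groups, at 1.23, 0.273, 0.537, 0.536 and 0.76 CPM in 3mCON and 2.11, 1.76, 3.19, 0.928 and 1.62 in 3mTSCmKO (1.49 ± 0.38, adjusted p = 0.00391). Ifi44 (1.37 ± 0.37, a call lost with the replicate block, adjusted p = 0.118) and Oasl2 (1.13 ± 0.29) were higher, and all 4 of these genes were lowest among knockouts in 3mTSCmKO replicate 4. The interferon-stimulated response element was sought as GAAANNGAAA on both strands. It was found in 3.18% of all promoters and in 10 of 21 of this list, 3 of them among the 6 higher members with a promoter (Isg15, Ifit3 and Bst2), and in 3.59% of all higher genes. Of the 31-mers of Ifit3, 61.8% also occur in other genes, so that its value is uncertain. The Isg15 promoter at chr4:156200819-156201068, minus strand, is given 5′ to 3′ with the overlapping copies in capitals.
Isg15: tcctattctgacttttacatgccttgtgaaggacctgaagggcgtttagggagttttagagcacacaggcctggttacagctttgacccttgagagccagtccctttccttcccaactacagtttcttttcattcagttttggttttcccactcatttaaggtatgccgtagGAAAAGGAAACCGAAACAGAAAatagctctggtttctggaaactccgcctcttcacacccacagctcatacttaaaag

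Cell cycle genes held 4 higher and 2 lower of 16 tested (2 higher without 3mCON replicate 1 or 3 or 3mTSCmKO replicate 4). Tpx2 led the rises, Ccne1, cyclin E1, was low at 0.273 to 0.422 CPM in 3mCON and 0.672 to 1.28 in 3mTSCmKO (1.69 ± 0.33), and Aurka, the mitotic kinase that Tpx2 activates, fell from 8.17, 9.098, 9.75, 11.6 and 10.8 CPM to 3.49, 4.25, 3.85, 3.199 and 3.27 (-1.46 ± 0.19, adjusted p = 2.02e-07). Among the remaining lists, 2 of 34 genes of fatty acid uptake and oxidation were higher and 3 lower (0 lower without 3mTSCmKO replicate 2 and 6 without replicate 4), 1 of 21 PGC-1 and nuclear receptor regulators was higher (0 without 3mCON replicate 4 or 5 or 3mTSCmKO replicate 4) and 1 lower, 1 of 18 genes of CNTF and neurotrophic signalling was higher and 2 lower, 2 of 11 metallothioneins and zinc transporters were higher (0 without 3mCON replicate 1 or 5 or 3mTSCmKO replicate 4) and 0 lower, and 1 of 20 laminins and integrins was higher and 2 lower. Of 19 clock genes, Cry2 rose by 0.90 ± 0.16 and Per3 was lower (-0.67 ± 0.20, adjusted p = 0.0132, but 0.0536 without 3mCON replicate 4 and 0.0839 without 3mTSCmKO replicates 3 and 4), while 16 did not pass, and 4 clock genes were higher without 3mTSCmKO replicate 4.

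To ask which of these effects differed from those at 9 months, the genotype effect at 3 months was set against that of vehicle-treated 9mTSCmKO and 9mCON mice in the same fit. It differed in 669 genes (4.94%), and in 545 of them the effect was larger in size at 9 months. The labels give library inserts of 175 to 236 nt for the vehicle groups at 3 months and of 223 to 308 nt at 9 months, so that age and library preparation cannot be told apart. The difference was computed against the same vehicle libraries at 3 months, so that it is not independent of the effects given above for that age. With insert size as a term 486 genes differed, 507 without the libraries that stood apart, and 312 in a fit of the vehicle groups alone. The genotype effect passed at both ages in 1876 genes.

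Several denervation genes had an effect at 9 months that differed from that at 3 months. Chrng had 4.67 ± 0.56 at 9 months, and its effect differed between ages (adjusted p = 0.000484). Runx1 had 0.05 at 3 months and 2.22 ± 0.24 at 9 months (difference -2.17 ± 0.33, adjusted p = 6.64e-05). Ncam1 and Musk had log2 fold changes of 1.33 and 1.01 at 9 months, with adjusted p-values of the difference of 5.21e-05 and 0.0292. The last was lost without any of 4 libraries. Map1b, a microtubule protein of growing axons, had -0.54 at 3 months (adjusted p = 0.056, passing with DESeq2 and in 5 other fits) and 2.65 ± 0.21 at 9 months (adjusted p of the difference 2.73e-09). Slow and cardiac genes also had larger effects at 9 months: Myl2 5.04 (adjusted p of the difference 0.00371), Atp2a2 4.07 (0.00475) and Ankrd1, a strain-responsive gene, 4.104 (0.00765). Dkk3 fell further, with -6.46 at 9 months (adjusted p of the difference 5.55e-06). Psat1 (3.15, adjusted p of the difference 0.000561) and Asns (2.15, adjusted p of the difference 0.0248) had larger effects at 9 months, although the difference for Asns was lost without any of 3 libraries.

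In 124 genes the effect was larger at 3 months, and 81 genes passed at 3 months, differed between ages and did not pass at 9 months, 54 of them higher and 27 lower at 3 months. Npc1 had 1.01 at 3 months and 0.11 ± 0.19 at 9 months (adjusted p of the difference 0.0358), but the difference was lost without any of 7 libraries and without those that stood apart (adjusted p = 0.116). Iqsec1, a guanine exchange factor gene, had 1.32 and -0.36 ± 0.26, and Apcdd1, a Wnt inhibitor gene, 1.23 and -0.64 ± 0.29. Both were chosen after their values were seen, and the call of Apcdd1 at 3 months was lost when both groups were fitted alone (adjusted p = 0.0611). Some leading genes kept a smaller effect at 9 months: Pak1 -1.63 ± 0.22 (adjusted p of the difference 0.000614), Tpx2 0.99 ± 0.27 (0.00136), Htra4 1.35 ± 0.34 (0.00857) and Rian 1.42 ± 0.28 (0.00704).

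In 23 genes the effect passed at both ages in opposite directions and differed between them, 16 lower and 7 higher at 3 months. Myom3, the M-band protein of intermediate fibers, was at 24.8, 20.5, 39.6, 19.8 and 26.4 CPM in 3mCON and 8.96, 6.01, 7.71, 16.1 and 7.09 in 3mTSCmKO, a log2 fold change of -1.501 ± 0.29, and had 0.995 ± 0.28 at 9 months (adjusted p of the difference 0.000193). Stbd1, a glycogen-binding protein gene chosen after its values were seen, as were Gramd1b and Gpcpd1, had -1.18 ± 0.14 at 3 months and 0.71 ± 0.14 at 9 months (adjusted p of the difference 3.73e-08). Chrna1 had -0.49 and 0.47, Igf2 -0.45 and 0.87, Gramd1b -0.53 and 0.58, and Gpcpd1 0.48 and -0.67 at 3 and 9 months. With limma the effects of Gramd1b and Gpcpd1 at 3 months did not pass (adjusted p = 0.12 and 0.0752).

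The same comparison under rapamycin asked which effects at 3 months differed after 3 days of mTORC1 inhibition. The genotype effect with vehicle differed from that with rapamycin in 467 genes (3.45%), and in 1194 when only the groups at 3 months were fitted. What follows is from the fit of all groups. Of these, 344 had passed with vehicle, and in 334 of them the effect was smaller in size with rapamycin, in 10 larger, and 292 did not pass with rapamycin. This difference too was computed against the vehicle libraries. The dose on the labels differs from that in the study text.

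For several genes with large rises under vehicle, the genotype effect was near 0 or negative with rapamycin. The effect of Gadd45g was positive with vehicle, a call that was lost in 6 of 22 alternative fits, and negative with rapamycin, while for Ddit4 the negative value did not pass. Ddit4 had 3.23 with vehicle and -1.17 ± 0.51 with rapamycin (adjusted p = 0.168), a difference of 4.399 ± 0.74 (adjusted p = 0.000424). Gpx3 had 2.85 and -0.14 ± 0.22 (difference 2.99 ± 0.32, adjusted p = 9.44e-08), and Tpx2 2.99 and -0.28 ± 0.32 (adjusted p of the difference 6.02e-06). Gadd45a went from 1.96 to -0.30 ± 0.27 (adjusted p of the difference 0.000277) and Gadd45g from 1.35 to -1.51 ± 0.43, which passed as lower (adjusted p = 0.0199; adjusted p of the difference 0.00463). With rapamycin, Trim63 had -0.08 (adjusted p of the difference 0.00655), Fbxo32 -0.31 (0.0121), Fbxo30 0.08 (0.0283), Fbxo40 -0.12 (0.0253) and Glul -0.53 (0.000257). Without the libraries that stood apart the difference for Fbxo30 did not pass (adjusted p = 0.0637), and those for Fbxo30 and Fbxo40 were each lost without either of 2 single libraries. Of all 13543 genes 467 (3.45%) differed, and of the 2676 that passed with vehicle 344 did. Of the 22 atrophy ligases 6 differed, as did 6 of the 16 glucocorticoid receptor targets. ER genes moved likewise: 5 of 28 differed, with Xbp1 at 0.16 (0.000429) and Hspa5 at -0.23 (0.00227) under rapamycin. In the amino acid branch, Mthfd2 kept part of its rise, at 1.27 ± 0.24 (adjusted p of the difference 0.00911).

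Among the falls, Aqp4 kept an effect of -3.64 ± 0.24 with rapamycin, a difference of -3.23 ± 0.37 from that with vehicle (adjusted p = 3.32e-07). Slc47a1, an organic cation exporter gene, was at 25.2, 25.7, 20.03, 29.1 and 26.4 CPM in 3mCON and 5.73, 4.44, 7.81, 7.81 and 8.601 in 3mTSCmKO with vehicle (-1.86 ± 0.18) and had 0.42 ± 0.17 with rapamycin (adjusted p of the difference 9.44e-08). Efcab6 kept -0.87 ± 0.17 (9.07e-06), while Smad3 had -0.24 ± 0.19 (0.0121), Vegfa -0.22 ± 0.12 (0.00639) and Myom3 0.56 ± 0.28 (0.00217). Cish changed sign, from -2.58 to 1.19 ± 0.62, where the second did not pass (adjusted p of the difference 0.0141). For some leading genes no difference was detected: Gm26870 had 7.79 ± 0.55 with rapamycin, Dkk3 -3.51 ± 0.29, Deptor -1.21 ± 0.21, Hspb7 2.31 ± 0.26, Eda2r 1.66 ± 0.29 and Cntfr -2.36 ± 0.33, with adjusted p-values of the difference from 0.192 (Cntfr) to 0.982 (Hspb7).

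**Figure D5:**
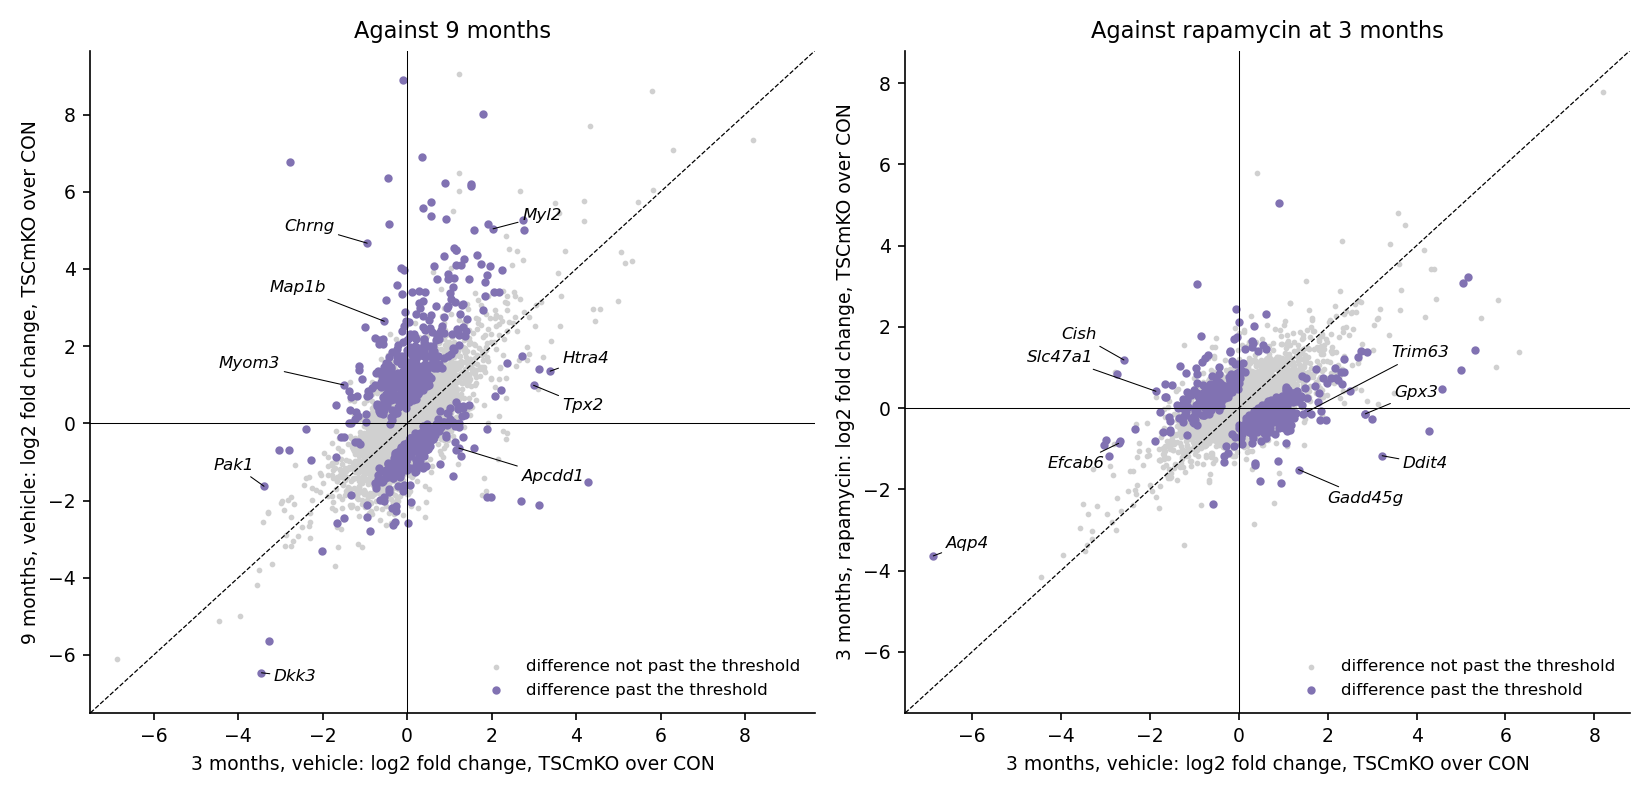
Log2 fold change of TSCmKO over CON with vehicle at 3 months (horizontal axes) against that at 9 months (left) and with rapamycin at 3 months (right) for each gene tested, purple where the difference passed an adjusted p of 0.05, with the diagonal dashed. Most purple points at left lie farther from zero on the vertical axis (545 of 669), and at right they crowd near zero on the vertical axis, with Ddit4 and Gpx3 to the right of the diagonal and Aqp4 to the left.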

How the data were processed

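Muscle RNA was sequenced from 40 mice in 8 groups of 5, and groups and replicate numbers came from the labels. From whole EDL lysate the authors captured poly(A) RNA, made strand-specific libraries and sequenced single-end reads. Per the labels and the study's methods, the authors trimmed reads with Cutadapt 1.9.1 and estimated transcript abundance with kallisto 0.43.1 in stranded mode on GRCm38 transcripts, so that a read matching several transcripts was shared among them. The study text names protein-coding transcripts, but the deposited tables also hold non-coding genes, so the transcript set is uncertain. The deposited values were estimated counts per gene and TPM.

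Here estimated counts were rounded, and 13543 of 22844 genes with at least 1 CPM in at least 5 libraries were fitted with edgeR 4.0.16 (R 4.3.3, TMM, robust quasi-likelihood, 1 mean per group over all 40 libraries). Two-sided p-values were adjusted by the Benjamini-Hochberg method, and the SE was derived from the F statistic. TPM entered with a pseudocount of 1 the principal components and a limma 3.58.1 alternative. DESeq2 1.42.0 was another alternative. The fitting code was tested on simulated data. Totals of 10988960 to 33945646 counts set the precision of low genes. P-values rest on a spread between mice that was estimated over all 8 groups of 5. The biological coefficient of variation was 24.6% in 9mCON and 28.1% in 9mTSCmKO, beside 14.8% in 3mCON and 17.4% in 3mTSCmKO.

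Genes named were Tsc1 and the mTORC1 list, the 12 largest rises and falls (past the threshold, at least 5 CPM, no overlap), up to 4 members per direction of each list, the receptor, denervation, sarcomere, ligase, Gadd45 and collagen lists, and the 5 largest differences of either sign by age and rapamycin. Members and lists were chosen with earlier results of these data known. Shared 31-mers were counted over the GRCm38 transcripts given for this work, and promoters were those of RefSeq (GRCm38.p6). Some genes that this rule names are not reported here.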

Additional observations from a re-analysis of the deposited data

Results flagged for a closer look

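Single libraries lay far from the other 4 of their group for a number of the genes named. The gap from the highest or lowest library to its nearest neighbour was above 0.71 of the range of the group, Dixon's critical value for 5 samples, in 50 of 462 groups tested (10.8%), where about 1 in 20 is reached by chance. Some of the genes were named because a library stood apart in them or as blood markers, so that this share is not to be set against chance, and without genes chosen after their values were seen and without cell markers it was 28 of 372 (7.53%). Values are TMM-scaled CPM of the outlying library, with its nearest neighbour in the group.

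3mCON replicate 3 stood above the others of its group for Rasd2 (17.2 against 4.06), Dnajb4 (61.3 against 45.5), Fam134b (179.8 against 99.3), Trim63 (41.2 against 34.5), Eda2r (30.1 against 16.9), Klf15 (54.4 against 40.2), Ppargc1a (199 against 85.9), Insig1 (21.03 against 16.2), Odc1 (148 against 72.3), Myl2 (103 against 26.8), Atp2a2 (146 against 75.8), En1 (10.1 against 1.06), Hoxd8 (33.6 against 4.73), Hoxd9 (13.4 against 2.52) and Hoxd10 (6.77 against 1.18). 3mCON replicate 3 stood below the others of its group for Dkk3 (53.2 against 111), Sars (78.7 against 94.3), Atp2a1 (27488 against 35903) and Tbx1 (19.04 against 49.5). 3mTSCmKO replicate 4 stood above the others of its group for Aldh1l2 (7.84 against 5.24), Dnajb4 (105 against 70.8), Srxn1 (78.4 against 52.5), Dach2 (6.53 against 0.864), S100a9 (20.2 against 3.24), En1 (8.45 against 0.617), Hoxd8 (16.2 against 3.85), Hoxd9 (7.26 against 2.11), Hoxd10 (5.12 against 1.13) and Acta2 (71.5 against 55.7). 3mTSCmKO replicate 4 stood below the others of its group for Ccne1 (0.672 against 1.11). 3mCON replicate 2 stood above the others of its group for Map1lc3a (79.9 against 73.6) and Cd79a (0.91 against 0.298). 3mCON replicate 2 stood below the others of its group for Atf4 (143 against 172), Oasl2 (2.09 against 3.72) and Ifit3 (3.09 against 3.69). 3mTSCmKO replicate 2 stood above the others of its group for Fbxo40 (829 against 658), Impdh2 (32.1 against 28.2), Stbd1 (21.8 against 15.04) and Ctsa (93.9 against 79.5). 3mTSCmKO replicate 2 stood below the others of its group for Pdha1 (576 against 727). 3mTSCmKO replicate 3 stood above the others of its group for Cd79a (5.45 against 1.502), Ube2l6 (30.5 against 6.92), Hbb-bs (2187 against 209.6) and Hbb-bt (1407 against 143). 3mCON replicate 5 stood below the others of its group for Myh2 (96.2 against 149) and Apcdd1 (3.55 against 6.19). 3mTSCmKO replicate 5 stood above the others of its group for Smox (80.3 against 55.2). 3mTSCmKO replicate 5 stood below the others of its group for Glb1l2 (1.19 against 2.504). 3mCON replicate 1 stood above the others of its group for Col3a1 (423 against 255). 3mCON replicate 4 stood above the others of its group for Cish (37.1 against 14.7).

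The genotype effect differed between 3 months and 9 months in 39 of the genes named, by the test of the difference over all genes (edgeR's quasi-likelihood test, adjusted p from 2.73e-09 to 0.0422). The values are log2 differences, the effect at 3 months minus that at 9 months. They were positive for 16 genes. These were S100a9 (5.81), Slc4a1 (5.24), Hbb-bs (3.89), Hbb-bt (3.803), Dkk3 (3.01), Ces1d (2.29), Ube2l6 (2.13), Htra4 (2.03), Tpx2 (2.01), Apcdd1 (1.87), Rian (1.71) and Iqsec1 (1.68). Next came Gpcpd1 (1.15), Npc1 (0.91), Mylk2 (0.80) and Atp2a1 (0.70). They were negative for 23 genes. These were Chrng (-5.62), Map1b (-3.19), Myl2 (-3.01), Ankrd1 (-2.94), Tnni1 (-2.76), Myom3 (-2.497), Runx1 (-2.17), Atp2a2 (-2.11), Psat1 (-2.02), Stbd1 (-1.89), Pak1 (-1.76) and Ncam1 (-1.72). Next came Tceal6 (-1.71), Tceal3 (-1.51), Asns (-1.47), Musk (-1.36), Tceal5 (-1.35), Bex1 (-1.33), Igf2 (-1.32), Gramd1b (-1.11), Chrna1 (-0.96), Slc2a1 (-0.80) and Bag3 (-0.74). Insert sizes of the libraries also differed between ages, and the part of library preparation in these differences cannot be told apart from that of age. S100a9 and Slc4a1 were highest in 3mTSCmKO replicates 3 and 4 and the hemoglobin genes in replicate 3, and without both libraries 6 of the differences did not pass: S100a9 (2.91, adjusted p = 0.0735), Slc4a1 (2.59, adjusted p = 0.241), Ube2l6 (1.19, adjusted p = 0.235), Hbb-bs (2.003, adjusted p = 0.283), Hbb-bt (1.95, adjusted p = 0.297) and Bex1 (-1.24, adjusted p = 0.0508).

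The genotype effect differed between vehicle and rapamycin at 3 months in 61 of the genes named, by the test of the difference over all genes (edgeR's quasi-likelihood test, adjusted p from 9.44e-08 to 0.0495). The values are log2 differences, the effect with vehicle minus that with rapamycin. They were positive for 41 genes. These were S100a9 (4.84), Ddit4 (4.399), C130080G10Rik (4.05), Gm10851 (3.88), Tpx2 (3.27), Gpx3 (2.99), Gadd45g (2.86), Gadd45a (2.26), Rasd2 (1.98), Igfn1 (1.94), Glul (1.67) and Trim63 (1.63). Next came Npc1 (1.51), Myl4 (1.49), Lox (1.43), Mthfd2 (1.41), Sdf2l1 (1.397), Fbxo32 (1.36), Pdp1 (1.29), Slc12a2 (1.2004), Thrsp (1.18), Gatsl2 (1.17), Tsc22d3 (1.14) and Klf15 (1.14). Next came Sesn1 (1.07), Fam134b (1.04), Trp53inp1 (0.99), Sesn2 (0.98), Vldlr (0.97), Aldh1l1 (0.89), Hspa5 (0.84), Insig1 (0.84), Selenos (0.82), Xbp1 (0.80), Gpcpd1 (0.79) and Sqstm1 (0.78). Next came Pfkfb4 (0.77), Fbxo30 (0.75), Fbxo40 (0.72), Traf6 (0.71) and Gars (0.54). They were negative for 20 genes. These were Cish (-3.77), Aqp4 (-3.23), Tceal7 (-2.37), Slc47a1 (-2.28), Myom3 (-2.07), Scx (-1.96), Efcab6 (-1.83), 5430431A17Rik (-1.74), Bex1 (-1.54), Tceal6 (-1.36), Tceal5 (-1.22) and Smad3 (-1.104). Next came Stbd1 (-1.08), Kcnq5 (-1.04), Ache (-1.002), Ncam1 (-0.95), Aldh1l2 (-0.89), Camk2b (-0.82), Vegfa (-0.78) and Acvr1 (-0.58). Without 3mTSCmKO replicates 3 and 4, 12 of the differences did not pass, those of Fam134b, Traf6, Trp53inp1, Thrsp, Insig1, Camk2b, Kcnq5, Ache, Acvr1, S100a9, Tceal5 and Tceal6, with adjusted p-values from 0.0523 to 0.375.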

How the results depend on the processing

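The genotype effect called 2676 genes, and 4217 when only the groups at 3 months were fitted, which share a spread estimate without the 9-month libraries. The difference between ages called 669 genes and 312 in a fit of the vehicle groups alone, and the difference with rapamycin 467 genes and 1194 in the groups at 3 months. Leaving out 1 library of either group gave 2256 to 2481 genes for the genotype effect, 471 to 765 for ages and 338 to 430 for rapamycin. Other fits of the genotype effect called 2893 genes with DESeq2, 2353 with limma on log2(TPM + 1), 2365 with no filter, 2491 at 5 CPM, 2550 with insert size as a term, 2622 with library totals and 3667 from both groups alone. Upper-quartile scaling called 2737, of which 49.3% were higher against 57.9% in the TMM fit. The alternatives without the libraries that stood apart (2561) and without 3mTSCmKO replicates 3 and 4 (2162, with 631 for ages and 376 for rapamycin) were chosen after seeing the data.

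The replicate numbers did not pair the samples: same-numbered libraries had correlations of their deviations from the group means of 0.106, -0.03, -0.033, 0.003 and 0.087, and not every library correlated best with its own number. The fit of both groups with the replicate block called 3357 genes. Of 231 genes named, 195 passed, 155 of them in each of the 22 alternatives in which they were tested, and 40 lost the call in at least 1. In these alternatives no result that passed turned to the other direction.

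List counts also moved between fits. In the groups at 3 months 18 proteasome genes were higher, 11 interferon genes and 7 insulin genes higher, and 15 translation factors and 12 genes of the TCA list lower. Calls rose over all genes in that fit, to 2378 higher and 1839 lower of 13006, from 1549 and 1127 of 13543. These list counts are thus not particular to the lists. Genes near 1 CPM, such as Chrng, Isg15 and Ccne1, rest on few reads, and differences in them are less certain at this depth. The cause of these shifts was not tested.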

Other observations

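A set of related genes on the X chromosome, the Tceal and Bex family of small transcription elongation and signalling adaptors, was picked after its values were seen. Of 10 members with enough reads, 7 were lower in 3mTSCmKO, beside 8.32% of all genes, and since the set was chosen for its values nothing is read from this count. Tceal5 was at 13.6, 11.8, 11.2, 9.23 and 10.98 CPM in 3mCON and 4.22, 5.16, 4.06, 4.83 and 5.58 in 3mTSCmKO (log2 fold change -1.24 ± 0.21, edgeR adjusted p = 3.05e-05). Bex1 was at 8.68, 6.91, 7.93, 6.81 and 8.45 CPM in 3mCON and 2.44, 4.703, 3.55, 2.82 and 3.92 in 3mTSCmKO (-1.16 ± 0.25, adjusted p = 0.000639). In both genes every 3mTSCmKO library lay below every 3mCON library.

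The log2 fold change was -1.36 for Tceal6, -1.33 for Tceal7, -1.21 for Tceal3, -0.90 for Tceal8 and -1.36 for Bex4, of which Bex4 overlapped between groups. The call of Bex4 was lost in 7 of 18 alternative fits, with adjusted p-values of 0.182 without 3mTSCmKO replicates 3 and 4, 0.163 without those that stood apart and up to 0.0923 without 1 library. Bex3 (-0.55 ± 0.34, adjusted p = 0.271), Tceal9 (-0.01 ± 0.14) and Tceal1 (0.00 ± 0.21) did not pass. At 9 months the 10 genes ran from -0.62 to 0.36, and 0 passed by edgeR, with 2 at an unadjusted p under 0.05. The difference between ages passed for Tceal6 (-1.71 ± 0.38), Tceal5 (-1.35 ± 0.29), Bex1 (-1.33 ± 0.34) and Tceal3 (-1.51 ± 0.37). Without 3mTSCmKO replicates 3 and 4 the difference for Bex1 did not pass (adjusted p = 0.0508). With rapamycin, Tceal7 had 1.04 ± 0.24 (adjusted p of the difference 4.75e-05), Tceal5 -0.02 ± 0.21 (0.0145) and Bex1 0.39 ± 0.23 (0.00542), and the difference for Tceal5 did not pass without 3mTSCmKO replicates 3 and 4 (adjusted p = 0.0523). Of the 31-mers of Tceal6, 57.2% occur in other genes, as do 29.8% for Bex1, 28.1% for Tceal5, 27.5% for Bex4 and 17.04% for Tceal3, so that the values of these 5 are uncertain, while under 1% are shared for Tceal7 and Tceal8.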
